A study of Mus musculus with 6 samples.

Results

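The genes described here are 8 components of MHC class I antigen presentation, H2-K1, H2-D1, B2m, Tap1, Tap2, Tapbp, Nlrc5 and Erap1, in regulatory T cells (Tregs) from the inflamed mouse colon. They were taken by gene symbol from a deposited table of 24537 genes. All 8 were found, each as a single row, and all 8 were among the 13211 genes that had a TPM of 1 or more in 3 or more libraries (TPM is a transcript level normalised to transcript length and sequencing depth, so levels of different genes can be set side by side). Messenger RNA was sequenced from 3 libraries labelled REV-ERB KO (knockout) and 3 labelled REV-ERB WT (wild type). Mice of both groups had colitis from TNBS, a hapten applied to the skin at 1% in 150 µl and given into the rectum at 2.5% in 100 µl after 7 days. Details not given in the sources used here include strain, age, the promoter or Cre behind the deletion, the deleted exons and the sorting of the Tregs. Nothing in the labels ties each library to its own animal, so p-values measure the spread between these libraries, which may be technical.

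MHC class I molecules display peptides from inside the cell to CD8 T cells and are present on nearly all nucleated cells, T cells included. Proteasomes, some with interferon-inducible subunits, cut proteins into peptides, the TAP1-TAP2 transporter pumps them into the endoplasmic reticulum, ERAP1 trims them, and tapasin (Tapbp) holds the empty heavy chain and B2m partner at the transporter until a peptide is bound. NLRC5 is a transcriptional coactivator that assembles on the promoters of these genes, and interferon-γ raises NLRC5 and the pathway, in part through IRF1. REV-ERBα, encoded by Nr1d1, is a nuclear receptor of the circadian clock that represses transcription.

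The libraries held 12641850, 13848375 and 15890630 reads (KO 1, 2 and 3) and 9794480, 12122575 and 11678688 reads (WT 1, 2 and 3), so every library labelled KO was deeper. Nr1d1 stood at 169.2, 154.3 and 141.4 TPM with the KO label and at 66.3, 104.0 and 88.2 TPM with the WT label. Nr1d1 thus lay higher in every library labelled KO. These values cover the transcript as a whole and not single exons. Nr1d2, the other REV-ERB gene, overlapped, at 52.6 to 88.6 TPM with the KO label and 50.4 to 70.4 TPM with the WT label. The labels do not say which REV-ERB gene was targeted, so directions below follow the labels as given. Foxp3, the defining transcription factor of Tregs, was present in all 6 libraries, at 171.4 to 235.0 TPM with the KO label and 451.4 to 663.7 TPM with the WT label, lower in every library labelled KO (log2 difference -1.49, limma adjusted p = 0.0678). It had the lowest difference of the 10 Treg and T cell markers. Of these, 9 lay below 0 (median difference -0.23), 5 of them lower in every library labelled KO, where 10.4% of all genes were. Markers of gut epithelium summed to 4342, 6919 and 3718 TPM against 3493, 2335 and 2698 TPM, and all 17 lay above 0 as differences, 12 of them higher in every library labelled KO, where 10.6% of all genes were (median difference 0.94). Myeloid and dendritic markers summed to 753.5 to 1171 TPM with the KO label and 770.3 to 1042 TPM with the WT label, whereas B cell markers spanned 540.2 to 2081 TPM and CD8 T and NK cell markers no more than 31.7 TPM in any library. As differences, 12 of 15 myeloid and dendritic markers (median 0.12) and all 9 tested fibroblast and endothelial markers (median 0.27) lay above 0. These cells express class I genes too, and their part in the differences below was not tested. In bulk RNA, fewer cells of a type and less RNA per cell cannot be told apart.

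None of the 8 genes differed between the labels past the threshold. Of the whole table, limma (moderated test on log2(TPM + 1), Benjamini-Hochberg adjusted over 13211 genes) called 0 genes at an adjusted p under 0.05 in either direction, which is 0.0% for each. At an unadjusted p under 0.05 it gave 1030 genes higher and 1038 lower with the KO label (7.8% and 7.86%), and limma-voom on the recovered reads also called 0. Without the library labelled WT 1 the count was 14 genes, and the 8 were not among them. Of the 8, 6 lay below 0 and 2 above, with a median difference of -0.11 on the log2(TPM + 1) scale (KO minus WT), beside 50.5% of all genes below 0, 49.5% above and a median of -0.003. Only Nlrc5 had libraries of the 2 labels that did not overlap, as 1 gene of the 8 that was lower in every library labelled KO, where 10.4% of all genes were. H2-K1, H2-D1 and B2m had means 7.01%, 7.74% and 8.6% lower with the KO label, and Nlrc5 27.1% lower.

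**Figure D1:**
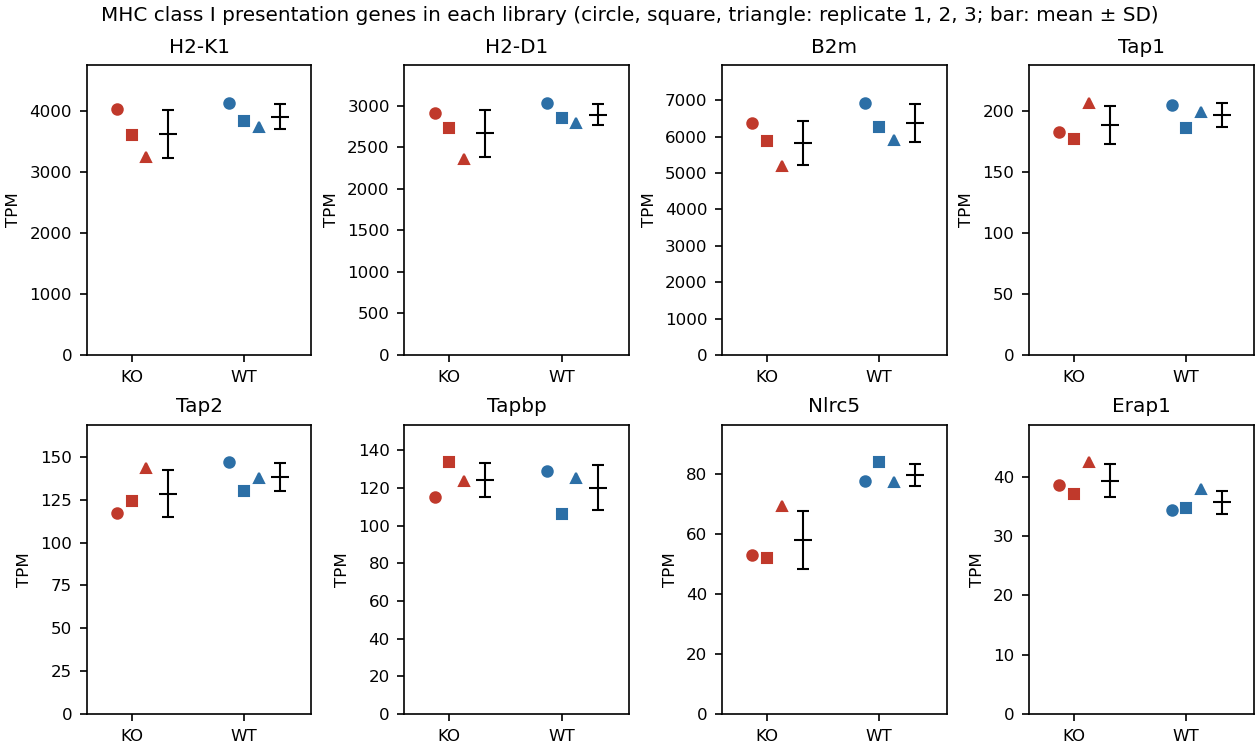
TPM of each of the 8 genes, on axes that start at 0, in the 3 libraries labelled KO and the 3 labelled WT, with 1 point per library (circle, square and triangle for replicates 1, 2 and 3) and a bar at the mean ± SD of each group. The Nlrc5 points labelled KO lie at 51.8 to 69.2 TPM, under every point labelled WT at 77.2 to 83.8 TPM, and the points of the other 7 genes overlap between the labels.

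H2-K1 and H2-D1 encode the classical heavy chains, which carry the peptide groove, and B2m encodes the invariant light chain. H2-K1 (NM_001347346, mm10 chromosome 17, 33996012 to 34000347, minus strand) measured 4033, 3606 and 3250 TPM with the KO label and 4132, 3841 and 3737 TPM with the WT label. The groups overlapped, with KO 1 above 2 of the libraries labelled WT and KO 3 lowest. The means were 3630 ± 391.7 and 3903 ± 204.5 TPM (SD, n = 3 each), a log2 difference of -0.11 (SE 0.141, 95% confidence interval -0.44 to 0.22, limma adjusted p = 0.7349, exact permutation p = 0.4). H2-K1 was the fourth most abundant transcript per length of the genes tested.

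H2-D1 (NM_010380, mm10 chromosome 17, 35263094 to 35267497, plus strand) measured 2915, 2734 and 2362 TPM with the KO label and 3033, 2853 and 2798 TPM with the WT label. Again KO 1 lay inside the range of the libraries labelled WT, and KO 2 and KO 3 below it. The log2 difference was -0.12 (SE 0.134, interval -0.43 to 0.19, limma adjusted p = 0.6872, exact permutation p = 0.3). The H2-L row overlaps H2-D1 over 3608 bases of the same strand and differed from it by at most 0.17 (log2) in any library, so the 2 rows share reads and give a single measurement.

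B2m (NM_009735, mm10 chromosome 2, 122147687 to 122153082, plus strand) was the second most abundant transcript, at 6389, 5889 and 5188 TPM with the KO label and 6928, 6277 and 5904 TPM with the WT label. KO 1 lay inside the range of the libraries labelled WT, KO 2 just under it and KO 3 lowest. The log2 difference was -0.13 (SE 0.157, interval -0.50 to 0.23, limma adjusted p = 0.7089, exact permutation p = 0.4). The 3 intervals include 0 and reach down to between -0.43 and -0.50, so lower values of up to that size are not excluded by 3 libraries per group. Without KO 3 the differences of H2-K1, H2-D1 and B2m were -0.032, -0.035 and -0.051, and with the epithelial marker score as a covariate -0.206, -0.255 and -0.253. That score was higher in every library labelled KO (7.08 to 7.94) than in any labelled WT (6.17 to 6.83). Here and below, fits with this covariate on 6 libraries therefore cannot cleanly separate the score from the label.

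H2-K1, H2-D1 and B2m put the 6 libraries in the same order, from low to high KO 3, KO 2, WT 3, WT 2, KO 1 and WT 1. KO 3 was the deepest library and WT 1 the shallowest, and the part of depth in this order was not tested. The ratio of H2-D1 to H2-K1 held between 0.723 and 0.758 over the 6 libraries (coefficient of variation 1.82%), and the ratio of B2m to H2-K1 between 1.58 and 1.68 (2.32%). Each gene alone varied more, with a coefficient of variation in the libraries labelled KO of 10.8% for H2-K1, 10.6% for H2-D1 and 10.4% for B2m. B2m against the sum of both heavy chains stood at 0.924 ± 0.00472 with the KO label and 0.936 ± 0.0318 with the WT label (SD, n = 3 each, exact permutation p = 0.7). Counting error was small against these values, since the library with the fewest H2-K1 reads had 43853.

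Upstream sequences are shown because H2-K1, H2-D1 and B2m kept nearly constant proportions over the libraries, while H2-Q4, a related heavy chain described further on, was lower against H2-K1 in every library labelled KO. The 250 bases before the annotated start were taken from RefSeq on build GRCm38.p6, and 6 of the 8 genes had such a window, Tap2 and Nlrc5 being without one. Capitals mark matches, on either strand, to the NF-κB consensus, the ISRE core (GAAA, any 2 bases and again GAAA, bound by IRF factors) and the CCAAT box (CCAAT, or ATTGG when read on the other strand). The windows are H2-K1 at chr17:34000348-34000597 (minus strand), H2-D1 at chr17:35262844-35263093 (plus strand), H2-Q4 at chr17:35379367-35379616 (plus strand) and B2m at chr2:122147437-122147686 (plus strand), each 5′ to 3′ toward the start.
H2-K1: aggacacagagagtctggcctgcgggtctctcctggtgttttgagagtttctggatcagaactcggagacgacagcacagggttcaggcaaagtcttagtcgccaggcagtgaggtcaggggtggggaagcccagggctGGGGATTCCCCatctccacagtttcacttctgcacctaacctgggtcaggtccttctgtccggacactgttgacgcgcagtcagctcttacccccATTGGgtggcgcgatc
H2-D1: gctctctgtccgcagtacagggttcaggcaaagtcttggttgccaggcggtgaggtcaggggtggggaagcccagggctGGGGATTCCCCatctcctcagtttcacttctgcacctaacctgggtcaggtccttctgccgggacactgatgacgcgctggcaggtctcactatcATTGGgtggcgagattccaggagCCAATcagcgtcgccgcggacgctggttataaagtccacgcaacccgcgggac
H2-Q4: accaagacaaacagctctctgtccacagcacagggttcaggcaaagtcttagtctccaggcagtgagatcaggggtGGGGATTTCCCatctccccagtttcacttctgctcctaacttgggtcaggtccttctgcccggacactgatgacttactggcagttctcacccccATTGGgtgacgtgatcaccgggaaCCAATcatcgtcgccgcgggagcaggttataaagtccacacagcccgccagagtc
B2m: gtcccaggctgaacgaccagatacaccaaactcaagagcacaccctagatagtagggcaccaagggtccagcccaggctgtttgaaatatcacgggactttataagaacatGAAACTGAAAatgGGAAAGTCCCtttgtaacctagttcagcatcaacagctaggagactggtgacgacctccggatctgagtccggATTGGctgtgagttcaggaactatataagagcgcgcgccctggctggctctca

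The H2-K1 and H2-D1 windows hold the same run of 47 bases, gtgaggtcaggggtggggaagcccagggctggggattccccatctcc, which starts 141 bases before the start of H2-K1 and 201 bases before that of H2-D1. It occurs in 3 of 32851 windows of the same length, and 166 of 190 aligned bases of the H2-K1 and H2-D1 windows were identical (87.4%). H2-Q4 holds an NF-κB match at the corresponding place, 174 to 164 bases before its start. H2-Q6, another row lower in every library labelled KO, holds the same NF-κB letters as H2-K1 and H2-D1, 173 to 163 bases before its start. H2-Q4 also holds a shorter run, acagggttcaggcaaagtctt, that it shares with H2-K1, H2-D1, H2-Q6 and H2-Q7 and that occurs in 6 of 32851 windows. B2m has no such run and holds an ISRE core 139 to 130 bases before its start, just upstream of an NF-κB match on the opposite strand. Of all windows, 7.25% hold an NF-κB consensus, 2.98% an ISRE core and 33.8% a CCAAT box. Among the other windows of the 8 genes, Tap1 has 1 CCAAT box, Tapbp has 2 and Erap1 has none. The GAS motif (TTCNNNGAA, in 7.02% of windows) and the RORE that REV-ERB proteins bind (in 0.155%) were not found in the 6 windows. A match is a description of these letters and not a binding site, and a missing match does not exclude a looser form. The H2-K1, H2-D1 and H2-Q4 windows, for example, each hold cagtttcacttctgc, which the ISRE pattern does not match.

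**Figure D2:**
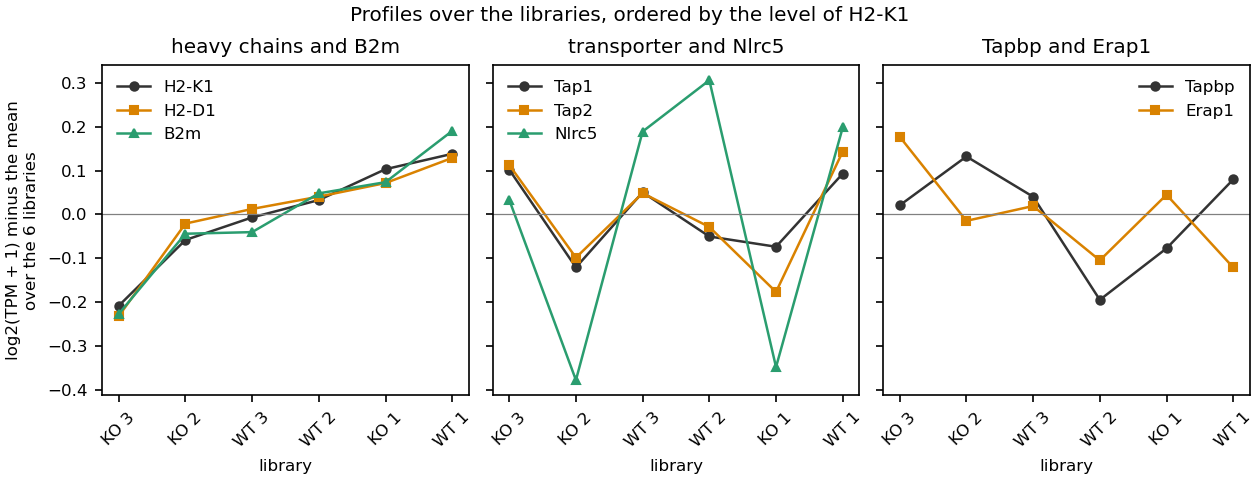
Level of each of the 8 genes in the 6 libraries, as log2(TPM + 1) minus that gene's mean over the libraries, with the libraries ordered by the level of H2-K1. H2-K1, H2-D1 and B2m climb together in this order. Tap1 and Tap2 lie near each other without sharing an order, and Nlrc5 is lower in each library labelled KO than in any labelled WT.

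Tap1 and Tap2 encode the paired chains of the peptide transporter. Tap1 (NM_013683, mm10 chromosome 17, 34187556 to 34197225, plus strand) measured 182.7, 176.8 and 206.5 TPM with the KO label and 205.2, 185.7 and 199.2 TPM with the WT label. KO 3, the library lowest in the heavy chains, was the highest in Tap1, and the groups overlapped. The log2 difference was -0.06 (SE 0.0991, interval -0.29 to 0.17, limma adjusted p = 0.7929, exact permutation p = 0.5).

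Tap2 (NM_011530, mm10 chromosome 17, 34204479 to 34216321, plus strand) measured 117.4, 124.0 and 143.7 TPM with the KO label and 146.8, 130.2 and 137.4 TPM with the WT label. KO 1 and KO 2 were lowest and WT 1 highest, with KO 3 among the libraries labelled WT. The log2 difference was -0.11 (SE 0.108, interval -0.36 to 0.14, limma adjusted p = 0.6522, exact permutation p = 0.3). The ratio of Tap1 to Tap2 ranged from 1.40 to 1.56, so the transcripts of the transporter's chains kept nearly constant proportions whatever the label (exact permutation p = 0.5).

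Tapbp encodes tapasin, which bridges the transporter and the heavy chain and favours the binding of well-fitting peptides. Tapbp (NM_001025313, mm10 chromosome 17, 33919478 to 33929290, plus strand) measured 115.5, 133.7 and 123.7 TPM with the KO label and 128.9, 106.4 and 125.4 TPM with the WT label. Its lowest library was WT 2 and its highest KO 2. The log2 difference of 0.05 (SE 0.111, interval -0.21 to 0.31, limma adjusted p = 0.8513, exact permutation p = 0.7) took the opposite sign without KO 2 (-0.004), without WT 2 (-0.035) and with the epithelial score as a covariate (-0.181), so it has no settled direction.

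Erap1 encodes the aminopeptidase that trims peptides inside the endoplasmic reticulum. Erap1 (NM_030711, mm10 chromosome 13, 74639872 to 74691875, plus strand) was the least abundant of the 8 genes, at 38.6, 37.0 and 42.4 TPM with the KO label and 34.3, 34.7 and 37.9 TPM with the WT label. The groups overlapped only through WT 3 and KO 2. The log2 difference was 0.14 (SE 0.108, interval -0.11 to 0.39, limma adjusted p = 0.5637, exact permutation p = 0.2), and it stayed above 0 under every alternative run, at 0.085 to 0.227. Against Tap1, Erap1 stood at 0.211, 0.209 and 0.205 with the KO label and at 0.167, 0.187 and 0.190 with the WT label, higher in every library labelled KO (exact permutation p = 0.1).

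Nlrc5 encodes the coactivator of the class I genes, and its transcript had the largest difference of the 8. Nlrc5 (NM_001033207, mm10 chromosome 8, 94472763 to 94527272, plus strand) measured 52.9, 51.8 and 69.2 TPM with the KO label and 77.7, 83.8 and 77.2 TPM with the WT label. Every library labelled KO was below every library labelled WT, and KO 3 lay nearest to them. The means were 58.0 ± 9.76 and 79.6 ± 3.66 TPM (SD, n = 3 each), without overlap. The log2 difference was -0.46 (SE 0.131, interval -0.76 to -0.16, exact permutation p = 0.1), with a limma p of 0.008023 before adjustment and 0.1963 after it. No arrangement of 3 against 3 libraries can give a permutation p under 0.1. At least 3085 reads stood behind each Nlrc5 value. With the epithelial score as a covariate the difference was -0.165, and without KO 3 it was -0.594 (limma adjusted p = 0.07163), with the adjusted p between 0.07163 and 0.9998 over the alternatives.

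H2-K1, H2-D1, B2m and Tap1, which NLRC5 is known to act on, overlapped between the labels. Of the 22 other class I rows described further on, 9 were lower in every library labelled KO, where 10.4% of all genes were. The part of Nlrc5 in these values was not tested. Nlrc5 against H2-K1 stood at 0.0131, 0.0144 and 0.0213 with the KO label and at 0.0188, 0.0218 and 0.0207 with the WT label, which overlapped through KO 3 (exact permutation p = 0.3). Nlrc5 against Tap1 stood at 0.290, 0.293 and 0.335 with the KO label and 0.379, 0.451 and 0.387 with the WT label, lower in every library labelled KO (exact permutation p = 0.1). In all, 16 such ratios were compared, chosen after the values of the genes were seen, and the smallest Benjamini-Hochberg adjusted value was 0.32.

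**Figure D3:**
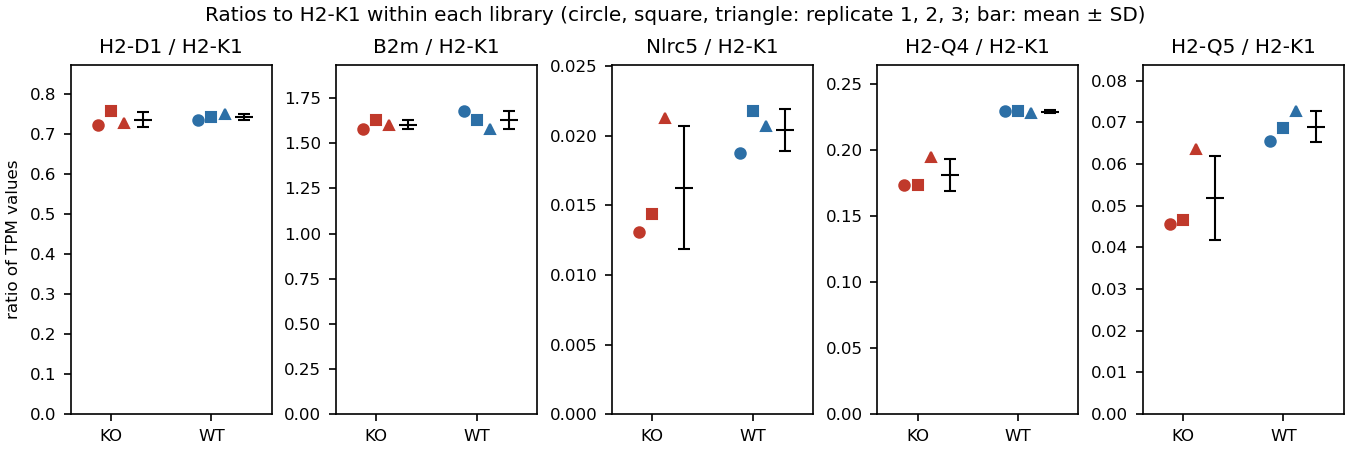
Ratio of the TPM of H2-D1, B2m, Nlrc5, H2-Q4 and H2-Q5 to that of H2-K1 within each library, on axes that start at 0, with 1 point per library (circle, square and triangle for replicates 1, 2 and 3) and a bar at the mean ± SD of each group. H2-D1 and B2m keep nearly the same ratio in all 6 libraries, Nlrc5 overlaps through KO 3, and H2-Q4 lies at 0.174 to 0.195 with the KO label against 0.228 to 0.230 with the WT label.

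By level per length the 8 genes formed an order of B2m, H2-K1, H2-D1, Tap1, Tap2, Tapbp, Nlrc5 and Erap1 in their means over the 6 libraries. Of the neighbours in this order only Tap2 and Tapbp had overlapping ranges, at 117.4 to 146.8 and 106.4 to 133.7 TPM. For every other pair of neighbours the lowest library of the more abundant gene was above the highest library of the next, as for H2-K1 (3250 to 4132 TPM) and H2-D1 (2362 to 3033 TPM).

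The profile of each gene over the 6 libraries was compared with every other tested gene by the root mean square difference of centred log2(TPM + 1) values, as a description. From H2-K1, H2-D1 stood at position 2 (0.024) and B2m at position 3 (0.03) of 13210 genes, behind Cd164 (0.02), a sialomucin. Outside the 8 genes, H2-D1 was nearest to the H2-L row (0.018) that shares its reads, and B2m to Cd164 (0.027). Tap1 was nearest to Pabpn1 (0.017), Tap2 to Pomt1 (0.027), Tapbp to Phyh (0.026) and Erap1 to Tmem263 (0.022). From Tap1, Tap2 stood at position 29 (0.049), and from Tap2, Tap1 stood at position 14, of 13210 genes. Nlrc5 was nearest to Ttc14 (0.034), Plcg1 (0.042) and Rufy2 (0.043), and its distance from H2-K1 was 0.283, which put H2-K1 at position 5053 in its order of 13210 genes.

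The other class I heavy chains, among them the class Ib molecules of the Q, T and M regions, lay mostly below 0 at the well-expressed loci. The H2-Q5 and H2-K2 rows, counted here too, carry non-coding transcript records. Of 29 listed rows 22 were tested, at 20 loci with H2-L (which overlaps H2-D1) among them, and 14 lay below 0 and 8 above, with a median difference of -0.10. In 9 of the 22 rows (40.9%), at 7 loci, every library labelled KO was below every library labelled WT, where 10.4% of all genes were. None was higher in every library labelled KO, where 10.6% of all genes were. The 9 rows with a mean of at least 100 TPM all lay below 0, and 5 of the 13 rows under it did, a split chosen after the values were seen. The 9 rows include H2-L and the pairs H2-Q6 with H2-Q8 and H2-Q7 with H2-Q9, each pair at a shared locus. They are therefore fewer separate measurements than rows. With the epithelial score as a covariate the median was -0.261.

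H2-Q4, a class Ib heavy chain, measured 702.5, 626.9 and 633.4 TPM with the KO label and 950.7, 884.1 and 852.2 TPM with the WT label. The groups were well apart, at means of 654.3 ± 41.9 and 895.7 ± 50.2 TPM (SD, n = 3 each), a log2 difference of -0.45 (SE 0.103, limma adjusted p = 0.1501, exact permutation p = 0.1). Against H2-K1, H2-Q4 stood at 0.174, 0.174 and 0.195 with the KO label and at 0.230, 0.230 and 0.228 with the WT label, lower in every library labelled KO (exact permutation p = 0.1). The difference of H2-Q4 was -0.455 in a fit with the epithelial score as covariate.

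H2-Q5, its neighbour in the same cluster, has a non-coding transcript record (NR_051981). It measured 183.8, 167.9 and 206.7 TPM with the KO label and 270.5, 264.0 and 272.1 TPM with the WT label. Every library labelled KO lay lower here too, with a log2 difference of -0.53 (SE 0.102, limma adjusted p = 0.1295, exact permutation p = 0.1). H2-Q6, which shares its locus with the H2-Q8 row, had a difference of -0.31, and H2-Q7, which shares its locus with H2-Q9 and encodes Qa-2, one of -0.19. H2-T23, whose product Qa-1 presents leader peptides of classical heavy chains to NK cell receptors, stood at -0.17, and H2-T10 at -0.37, which became 0.016 in a fit with the epithelial score as covariate. Mr1, which presents vitamin B metabolites to MAIT cells, stood at 5.69 ± 0.0259 against 7.97 ± 0.715 TPM (SD, n = 3 each), a difference of -0.42. The most positive differences, those of H2-M2 (0.67) and H2-Q10 (0.57), came from scarce transcripts whose libraries overlapped between the labels.

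Heavy chain genes are close copies, so their reads are uncertain. Of all 50-base windows of the H2-K1 transcript 9.07% recur in a transcript of another gene, of H2-D1 14.3%, of H2-Q4 24.3%, of H2-Q5 35.4% and of H2-Q6 36.8%, whereas B2m, Nlrc5 and Erap1 share 0.0%. The treatment of reads with several matches was not given in the sources used here.

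**Figure D4:**
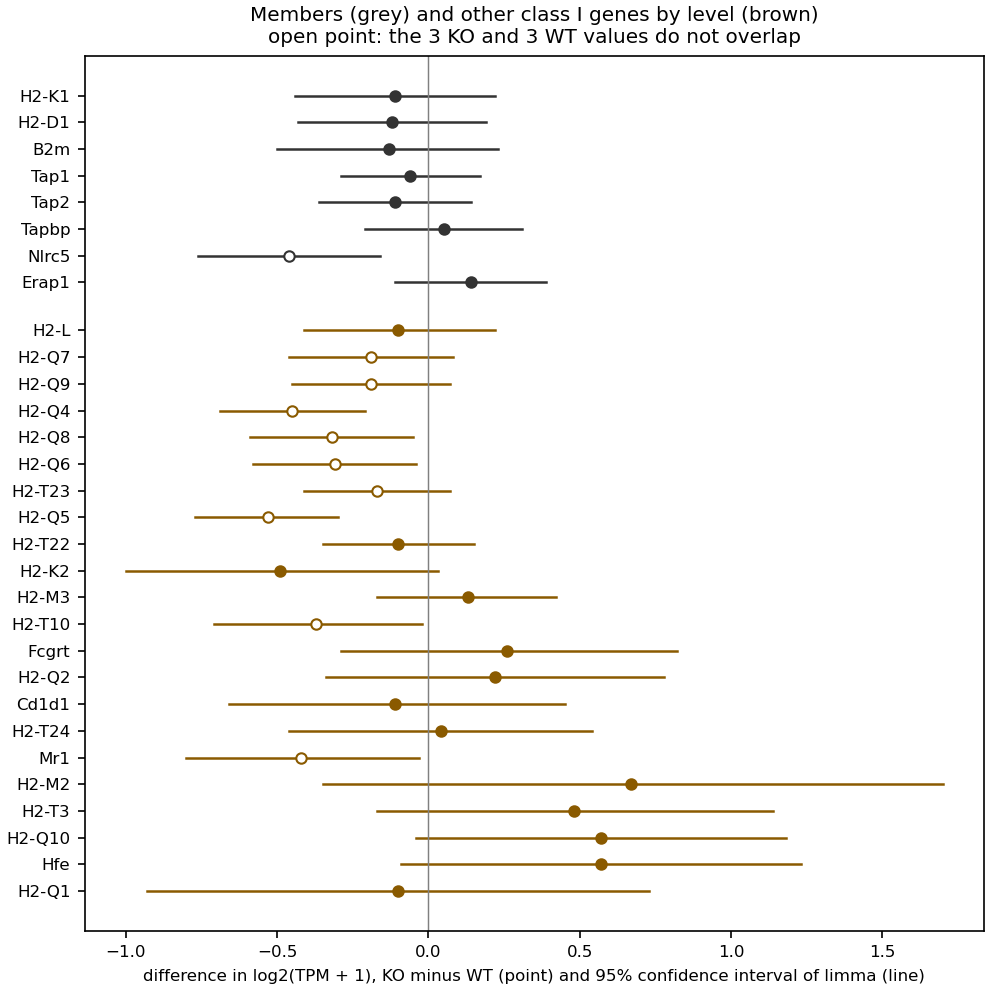
Log2 differences (KO minus WT, log2(TPM + 1) scale) of the 8 genes (grey) and of the other 22 tested class I rows by level (brown), with lines for 95% confidence intervals and open points where the libraries of the labels did not overlap. Nlrc5, H2-Q4 and H2-Q5 lie below 0 with their intervals, at -0.46, -0.45 and -0.53, and the intervals of H2-K1, H2-D1 and B2m include 0.

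Peptide supply showed no common direction. A list of 9 tested genes held the immunoproteasome, PA28 genes, another activator (Psme4) and an assembly factor (Pomp). Of these, 5 lay above 0 and 4 below (median difference 0.03), and 0 passed after adjustment. In each direction 1 gene of the 9 had an unadjusted limma p under 0.05, beside 7.8% of all genes higher and 7.86% lower. These were Psmb10, higher, and Psme2b, lower (-0.26), with the KO label. Psmb8 stood at 290.3 ± 30.5 against 285.2 ± 44.4 TPM and Psmb9 at 159.3 ± 24.4 against 162.4 ± 16.9 TPM (KO and WT labels, SD, n = 3 each). Both are catalytic subunits encoded beside Tap1 and Tap2, and their libraries overlapped. Psmb10, the remaining inducible catalytic subunit, stood at 94.5 ± 5.02 against 70.8 ± 17.0 TPM, a log2 difference of 0.44 with overlapping libraries (0.145 with the epithelial score as covariate).

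Of 8 tested peptidases that shorten peptides before or after transport, 4 lay above 0 and 4 below, and 0 passed after adjustment. In 1 of the 8 every library labelled KO was higher and in 3 lower, where 10.6% and 10.4% of all genes were. Lap3, a cytosolic leucine aminopeptidase, was higher in every library labelled KO, at 28.3 ± 3.23 against 19.4 ± 2.57 TPM (log2 difference 0.53). Tpp2, a large cytosolic peptidase, and Lnpep, an aminopeptidase of endosomes, were among the 3 lower in every library labelled KO, at -0.34 and -0.21. Fitted with the epithelial score as covariate, Lap3 stood at 0.235 and Tpp2 at -0.002.

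The genes of peptide loading and protein folding in the endoplasmic reticulum lay mostly above 0. Of 15 tested, 10 lay above 0 and 5 below, with a median difference of 0.16, and 0 passed after adjustment. In 6 of them every library labelled KO was higher and in 0 lower, where 10.6% and 10.4% of all genes were. Calr (calreticulin, a chaperone of the loading complex) stood at 1173 ± 103.4 against 944.6 ± 68.2 TPM, a difference of 0.31, and Canx (calnexin, which folds new heavy chains) at 204.4 ± 5.15 against 167.1 ± 14.2 TPM, a difference of 0.29. Sec61a1, the channel through which new chains enter, stood at 166.1 ± 3.26 against 134.0 ± 3.34 TPM, a difference of 0.31. Pdia3, the disulfide isomerase bound to tapasin, had a difference of 0.16 and Ero1l, an oxidase of the same compartment, one of 0.65. Tapbpl, a tapasin-related peptide editor, lay on the other side at -0.29. Epithelial markers were higher in the same libraries, and their part in these values was not tested. The epithelial score as a covariate left a median of 0.082, with Calr at 0.069 and Ero1l at 1.003.

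Among the 17 transcription factors of class I genes, 12 lay below 0 and 5 above, with a median difference of -0.12, and 0 passed after adjustment. In 4 of them every library labelled KO was lower and in 0 higher, where 10.4% and 10.6% of all genes were. With the epithelial score as a covariate the median was 0.003. Irf1, which binds the interferon element of class I promoters, measured 197.7, 209.3 and 190.2 TPM with the KO label and 266.5, 244.3 and 226.9 TPM with the WT label. All libraries labelled KO lay below those labelled WT, with a log2 difference of -0.30 (SE 0.0984, limma adjusted p = 0.2293, exact permutation p = 0.1). Stat2, a signal carrier of type I interferon, stood at 31.0 ± 3.19 against 45.3 ± 4.37 TPM, a difference of -0.53. Of the RFX complex with which NLRC5 assembles, Rfxap and Rfxank each stood at -0.20, lower in every library labelled KO, while Rfx5 overlapped at 0.15.

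Interferon-γ signalling genes and its other targets lay on both sides of 0, with guanylate-binding proteins lowest. The receptor pathway list also held Ifnar1, Ifnar2, Tyk2 and Usp18 of type I interferon signalling, all below 0. With these included, 9 of 12 genes lay below 0 (median difference -0.17, and -0.008 with the epithelial score as a covariate). The 3 above 0 were Ifngr2, Jak2 and Socs1. Ifngr2, the signalling chain of the receptor, was higher in every library labelled KO (0.45, and 0.195 with that covariate), Ifngr1, the binding chain, overlapped (-0.30), and Ifnar1, of the type I receptor, was lower in every library labelled KO (-0.32). Of 16 tested interferon-γ targets outside class I, 9 lay below 0 and 7 above (median difference -0.22), and 0 passed after adjustment. An unadjusted p under 0.05 with a negative difference was found for 8 of them, beside 7.86% of all genes, and 7 were lower in every library labelled KO, beside 10.4%.

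Gbp3, a GTPase of cell-autonomous defence, measured 111.9, 103.8 and 123.4 TPM with the KO label and 156.4, 236.3 and 197.4 TPM with the WT label, without overlap. Its log2 difference was -0.78 (SE 0.156, limma adjusted p = 0.1296, exact permutation p = 0.1). Gbp4 (-0.77), Gbp5 (-0.56) and Gbp7 (-0.51) of the same family were lower in every library labelled KO as well, whereas Gbp2 overlapped at 0.07. Fitted with the epithelial score as covariate, Gbp3 stood at -0.362, Gbp4 at -0.38, Gbp5 at -0.292 and Gbp7 at -0.073. Cd274, the checkpoint ligand PD-L1, stood at -0.26, and the chemokine Cxcl9, with overlapping libraries, at 0.73 (-0.521 with that covariate).

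**Figure D5:**
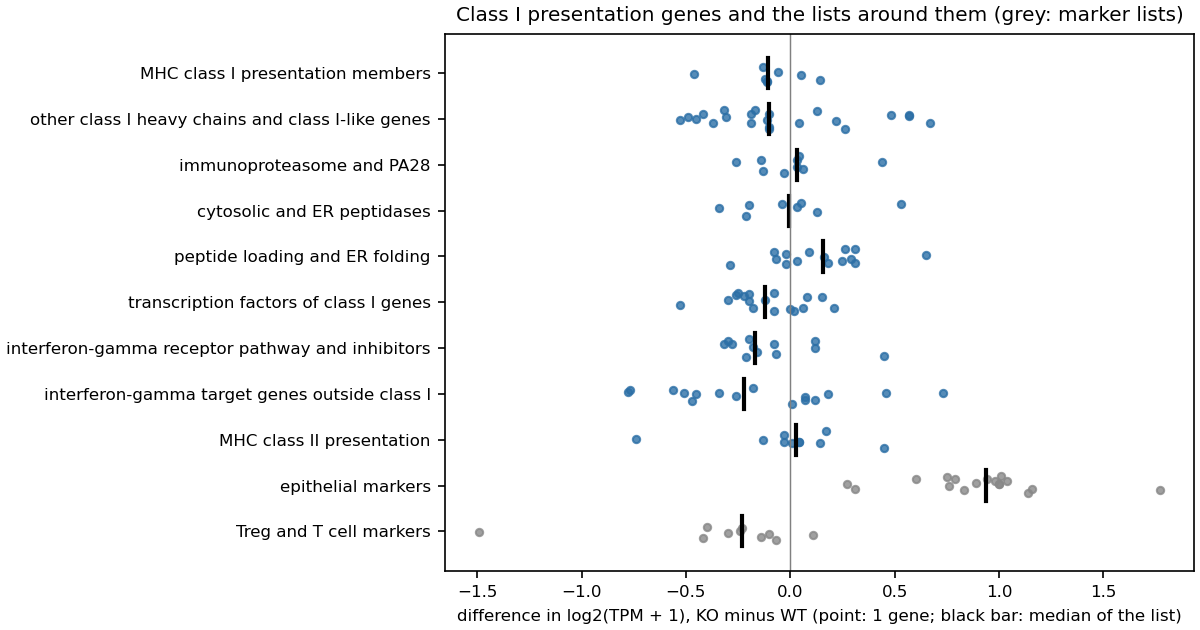
Log2 differences (KO minus WT, log2(TPM + 1) scale) of every tested gene in each list of the class I pathway and its surroundings, with epithelial and Treg markers in grey, a point per gene and a bar at the list's median. The medians are -0.11 for the 8 genes, -0.10 for the other class I rows, 0.16 for peptide loading and folding and -0.22 for the interferon-γ targets, against -0.003 over all genes tested.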

How the data were processed

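The authors deposited TPM values for 24537 RefSeq genes in 6 libraries, per the file headers. The submitters' processing notes name FastQC 0.11.8, Trim Galore 0.4.4, STAR 2.5.3a, HOMER 4.9.1 and mm10, with no settings. Strand use in counting was not given in the sources used here. Overlapping genes are therefore uncertain. B2m overlaps Patl2 on the opposite strand, and Nr1d1 overlaps Thra. TPM times transcript length gave whole reads (99.99% of values up to 500 reads lay within 0.1), which set the depth per library. The deposited TPM sum to 634200 to 644662 per library.

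Genes with TPM of at least 1 in at least 3 libraries were fitted on log2(TPM + 1) with limma 3.58.1 in R 4.3.3, with a variance trend and genotype as the only term. Differences on this scale understate changes of low genes. P-values are two-sided, adjusted by Benjamini-Hochberg over all 13211 genes, with a threshold of 0.05. Exact permutation tests used scipy 1.17.1 and Python 3.11.15. The script was tested on simulated data. The 8 genes and the lists were chosen with earlier results of these data known. Lists are described by counts and medians, without a test. A rule set which genes could be named. It held the 8 genes, the tested heavy chains and the 3 genes nearest to each profile. It also held, per list, the 2 highest and 2 lowest differences and genes with an unadjusted p under 0.05. The most abundant marker of each cell type was in the rule but is not named here. Other genes under the rule were left out too, among them Igtp (-0.34), Iigp1 (-0.47), Irgm2 (-0.45) and Pdia4 (0.26). Psmb8, Psmb9, Pomp, Pdia3, Rfxap, Rfxank, Gbp2, Foxp3, Ciita, Nr1d2, Ifnar2, Tyk2, Usp18 and Jak2 were named after their values were seen. Alternatives changed the pseudocount (0.1), the filter, the scaling, the variance model, the replicate block, an epithelial covariate and single libraries. No value column was left without a sample.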

Additional observations from a re-analysis of the deposited data

How the results depend on the processing

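The number of genes past the threshold was 0 in every alternative except without WT replicate 1, where it was 14 (2 higher and 12 lower), so leaving out single libraries gave 0 to 14. No paired analysis is implied by the replicate numbers: the deviations of same-numbered libraries correlated at 0.0037, -0.219 and -0.0408, not every library correlated best with its own number, and with a replicate block 0 genes passed (smallest adjusted p 0.09389) and Nlrc5 stood at -0.461. Over 14 alternatives Nlrc5 ranged from -0.594 to -0.165, H2-K1 from -0.206 to -0.032, H2-D1 from -0.255 to -0.035, B2m from -0.253 to -0.051, Tap1 from -0.128 to -0.006, Tap2 from -0.192 to -0.047 and Erap1 from 0.085 to 0.227, none changing sign. Tapbp changed sign with the epithelial covariate (-0.181) and when libraries were left out (range -0.035 to 0.102, negative at -0.004 without KO 2 and -0.035 without WT 2). With the epithelial covariate the median difference was -0.173 for the 8 genes, -0.261 for the other class I rows, 0.082 for loading and folding, 0.003 for the transcription factors, -0.008 for the interferon-γ receptor pathway and -0.737 for class II. Leaving out single libraries gave medians of -0.125 to -0.043 for the 8 genes, -0.195 to -0.042 for the other class I rows, -0.058 to 0.076 for the immunoproteasome, -0.286 to 0.354 for class II, -0.167 to -0.078 for the transcription factors, -0.145 to 0.04 for the peptidases, 0.072 to 0.177 for loading and folding, -0.163 to -0.102 for the receptor pathway and -0.357 to -0.082 for the interferon-γ targets. The covariate also turned the sign of H2-Q2 (-0.464), H2-T3 (-0.055), H2-T10 (0.016), H2-T24 (-0.007), H2-M2 (-0.376), H2-K2 (0.236), Fcgrt (-0.243), Thop1 (-0.116), Cxcl9 (-0.521), Casp1 (-0.185) and H2-Ab1 (-0.905). Leaving out single libraries turned the sign in the ranges of H2-Q1 (-0.354 to 0.159), H2-Q2 (-0.069 to 0.405), H2-T24 (-0.085 to 0.221), Cd1d1 (-0.307 to 0.028), Psme3 (-0.007 to 0.112), Thop1 (-0.044 to 0.332), Sec61g (-0.295 to 0.1), Rfx5 (-0.048 to 0.321), H2-Ab1 (-0.183 to 0.532) and H2-DMb2 (-0.415 to 0.021). The epithelial score was higher in every library labelled KO, so fits with this covariate cannot cleanly separate the score from the label. The causes of these changes were not tested. With 3 libraries per group the precision is limited by the spread between libraries more than by reads.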

Other observations

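Class II presentation, which uses its own chaperones, varied widely between the libraries. Of 10 tested class II genes 6 lay above 0 and 4 below (median difference 0.03), and their summed level was 3834, 5928 and 2349 TPM with the KO label and 3888, 3151 and 3863 TPM with the WT label, highest in KO 2 and lowest in KO 3. In 1 of the 10 every library labelled KO was higher and in 1 lower, where 10.6% and 10.4% of all genes were. These were the chains of H2-O, the class II peptide-editing inhibitor. H2-Oa was higher in every library labelled KO, at 17.4 ± 1.31 against 12.7 ± 3.26 TPM (SD, n = 3 each, log2 difference 0.45, and 0.067 with the epithelial score as covariate), and H2-Ob lower in every one, at 6.92 ± 0.997 against 12.3 ± 2.26 TPM (-0.74). Neither passed the adjusted threshold in limma, with the smallest adjusted p of this list at 0.1856. Ciita, the class II counterpart of NLRC5 as a coactivator, overlapped between the labels, at 7.59 ± 3.39 against 7.41 ± 1.17 TPM (log2 difference -0.03).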
